A study of Mus musculus with 8 samples.

Results

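The genes described here are 35 components of mitosis and cytokinesis, fixed by name and matched by symbol to gene identifiers in 8 count tables that list 53715 genes each. All 35 were found, and 34 of them had enough counts to be tested, Foxm1 being the exception. They were sorted by role into 2 genes of chromosome structure and proliferation, 6 of mitotic entry, 8 of the kinetochore and its checkpoint, 4 of the chromosomal passenger complex, 5 of the spindle, 3 of anaphase and mitotic exit, and 7 of cytokinesis and the central spindle.

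RNA came from bone marrow haematopoietic stem cells of mice, sorted by the LSK gate (no lineage markers, with Sca-1 and Kit) and within it as CD48- CD150+. The groups were 4 wild-type libraries (genotype given as Gata2 WT) and 4 libraries labelled Gata2; Mx1-Cre Heterozygote, from 4 mice per genotype. All mice were 8 to 12 weeks old and all had received 6 doses of pIpC, a double-stranded RNA mimic that induces interferon, so no group was free of that treatment. Mx1-Cre is a recombinase driven by an interferon-responsive promoter that is active in many cell types and not only in blood. The labels do not say whether wild-type mice carried it, nor which Gata2 allele was used, so transgene and allele cannot be told apart. Gata2 itself was not lower in the heterozygote-labelled libraries, at 30.1, 45.3, 29.1 and 38.5 CPM (the fragments of a gene relative to the library total after TMM scaling) across wild-type replicates 1 to 4 and 35.5, 61.9, 36.7 and 45.1 CPM across heterozygote-labelled replicates 1 to 4 (log2 fold change 0.33, SE 0.23, adjusted p = 0.858 by edgeR). Each direction given here therefore follows the deposited labels only.

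Entry into mitosis is driven by cyclin-dependent kinase 1 with cyclins A and B, and by the Polo and Aurora kinases. Microtubules of the spindle then attach to kinetochores, protein assemblies built on each centromere, and a checkpoint holds the anaphase-promoting complex inactive until all chromosomes are attached. After the chromosomes part, a central spindle and a contractile ring divide the cell. Long-term stem cells of the marrow are mostly out of cycle at rest, and interferon is known to drive them into cycle for a time. Transcripts of these genes accumulate late in the cell cycle, so that in RNA from a sorted population fewer cells in mitosis and less RNA per cell cannot be told apart.

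Many of these genes share 2 short promoter elements. CCAAT boxes are bound by the factor NF-Y, and the cell cycle genes homology region, TTTGAA, is bound by complexes that hold the genes silent in resting cells and activate them in late S phase and G2. In RefSeq promoter windows of GRCm38.p6, which run from 250 bases before to 50 bases after each start site, 29 of the 35 genes had an entry. Aurkb, Ccna2, Foxm1, Incenp, Kif20a and Tpx2 had none. Searched on both strands, TTTGAA was present in the windows of 23 of the 29 genes (79.3%), against 20.2% of 27025 genes with windows and 14.9% of the 9728 genes that were also tested for expression. Within 50 bases of the start site it was present in 22 of 29 (75.9%), against 5.72% of all genes. CCAAT was present in 24 of 29 (82.8%) against 41.1% of all genes, and the variant TTCGAA in 3 of 29 against 1.80%. These are matches of letters and do not show binding. TTCGAA reads the same on both strands, and a CCAAT match can share at most 1 base with either of the other strings.

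The stretches below are the last 100 bases before the RefSeq start site, 5′ to 3′ on the strand of the gene, with TTTGAA and CCAAT matches on either strand in capitals (TTCAAA and ATTGG are the reverse complements). Cdk1, Cdc20, Kif11, Ube2c and Prc1 are shown because both elements lie in this stretch. Bub1b, Ndc80 and Anln are shown because they were, with Kif11, the members of smallest unadjusted p below, and they hold no match there. Cdk1 is on the minus strand at chr10:69352913-69353012, Cdc20 minus at chr4:118437344-118437443, Kif11 plus at chr19:37376282-37376381, Ube2c plus at chr2:164769829-164769928, Prc1 plus at chr7:80294376-80294475, Bub1b plus at chr2:118598111-118598210, Ndc80 minus at chr17:71526858-71526957 and Anln minus at chr9:22389207-22389306.
Cdk1: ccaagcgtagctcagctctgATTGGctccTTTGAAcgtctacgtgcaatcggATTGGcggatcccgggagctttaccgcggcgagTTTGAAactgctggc
Cdc20: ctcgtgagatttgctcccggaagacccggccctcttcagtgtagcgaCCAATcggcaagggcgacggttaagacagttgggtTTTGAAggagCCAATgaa
Kif11: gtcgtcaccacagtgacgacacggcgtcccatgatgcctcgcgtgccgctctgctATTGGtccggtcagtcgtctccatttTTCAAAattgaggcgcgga
Ube2c: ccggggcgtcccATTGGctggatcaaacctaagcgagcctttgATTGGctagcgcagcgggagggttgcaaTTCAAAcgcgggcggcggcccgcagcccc
Prc1: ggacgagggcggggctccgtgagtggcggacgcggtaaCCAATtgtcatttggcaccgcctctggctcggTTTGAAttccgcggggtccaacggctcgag
Bub1b: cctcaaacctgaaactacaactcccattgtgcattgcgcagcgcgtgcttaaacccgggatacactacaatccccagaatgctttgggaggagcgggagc
Ndc80: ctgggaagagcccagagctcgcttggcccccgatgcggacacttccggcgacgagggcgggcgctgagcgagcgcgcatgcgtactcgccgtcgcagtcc
Anln: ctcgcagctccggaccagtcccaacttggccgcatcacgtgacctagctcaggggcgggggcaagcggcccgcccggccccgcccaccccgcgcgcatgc

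In each of the first 5 stretches a CCAAT box lies upstream of the TTTGAA. Over the 21 genes with that order, the distance from the first base of the closest upstream CCAAT box to the first base of the TTTGAA nearest the start had a median of 33 bases (9 to 153), and in 12 genes it was between 25 and 45 bases. Anln has TTTGAA matches only after its start site, at positions 22 and 29, and no CCAAT in the window. Ndc80 has a single TTTGAA at position 30 and no CCAAT. Bub1b has both elements outside its printed stretch, TTTGAA at position 41 and CCAAT at -113, and TTCGAA at -188. Nuf2, Birc5 and Nusap1 have no match to any of the 3 strings in this window. Counting TTCGAA in place of TTTGAA as well, which adds Bub1, 22 genes held such a match together with CCAAT and 7 did not. The median log2 fold changes between genotypes were -0.09 and -0.10 in these classes.

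**Figure D1:**
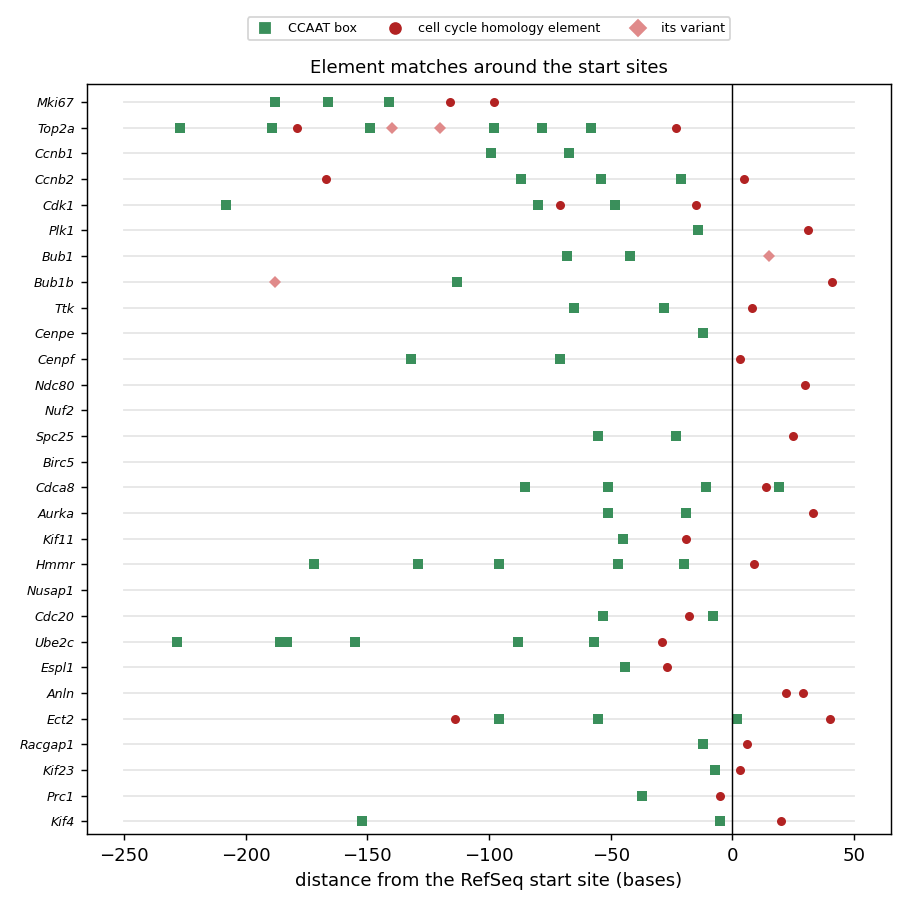
Position of each match relative to the RefSeq start site (x axis, bases, start at 0) for the 29 genes with a promoter window, using the first window of each gene. Squares are CCAAT boxes, circles TTTGAA and diamonds TTCGAA. Circles lie within 50 bases of the start in 22 genes, and squares lie mostly upstream of them.

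Mitotic transcripts were well detected in these stem cells, with levels that differed widely between genes. Levels between genes are given as RPKM, that is CPM divided by the summed exon length in kilobases, so that long genes are not favoured. Averaged over 8 libraries, Ccnb2 (cyclin B2) was highest at 174 RPKM, above 97.1% of the genes tested. Cdc20, the activator of the anaphase-promoting complex, followed at 70.6 RPKM and Spc25, a kinetochore subunit, at 60.4 RPKM. In all, 20 of the 35 genes exceeded 10 RPKM. At the low end were Foxm1, a transcription factor of the late cell cycle, at 0.118 RPKM, Espl1, the protease separase that parts sister chromatids, at 0.157 RPKM, and the large kinetochore proteins Cenpe and Cenpf at 0.766 and 0.778 RPKM. Mki67, the gene of the proliferation antigen Ki-67, stood at only 1.42 RPKM, below Top2a, the DNA topoisomerase of chromosome condensation, at 41.5 RPKM.

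**Figure D2:**
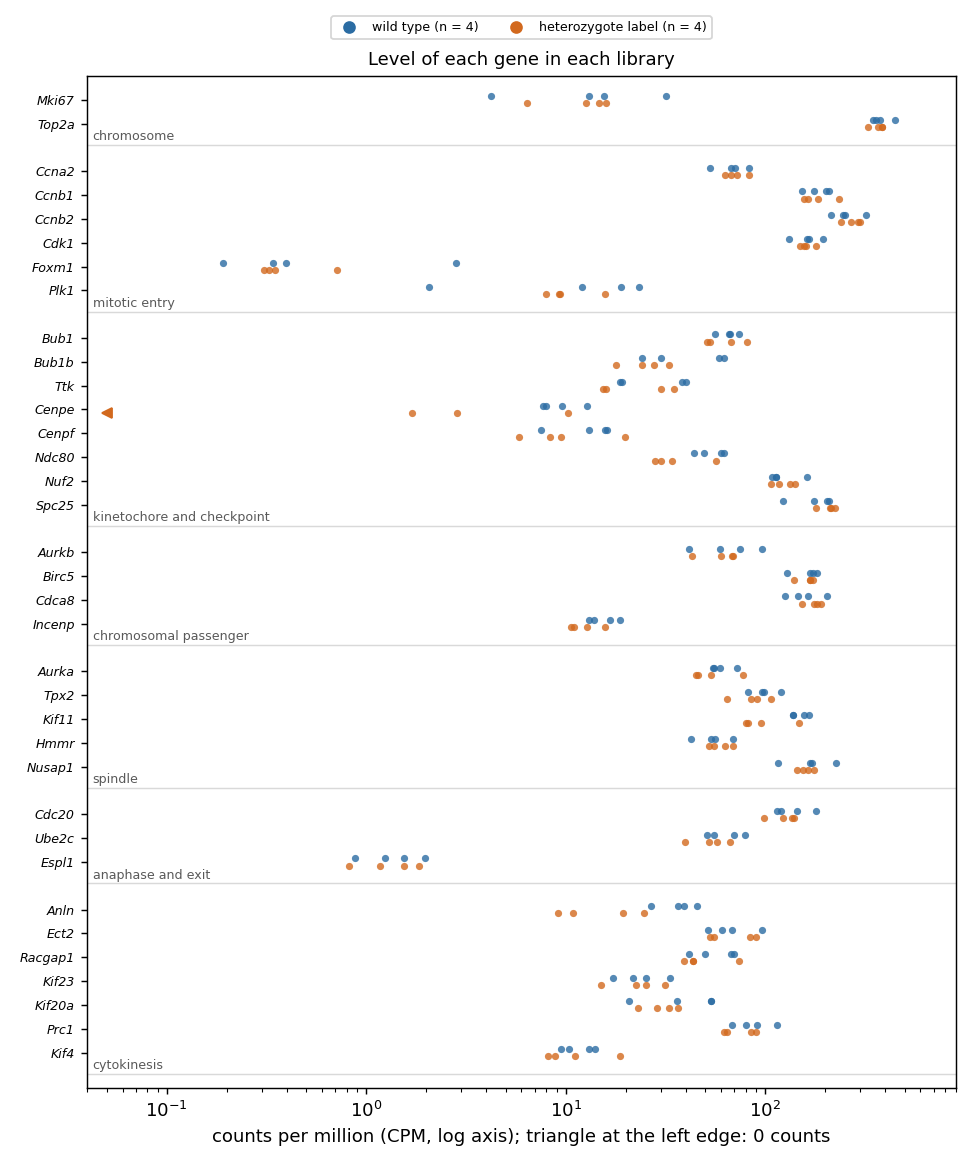
CPM of each gene (rows, grouped by role) in each library (points), on a log axis. The 4 wild-type and 4 heterozygote-labelled libraries overlap for every gene shown except Anln, and the triangle marks the library with 0 Cenpe counts.

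Between the genotypes no gene of the group passed the threshold. By edgeR 0 of 34 reached an adjusted p of 0.05 (0% of 13992 genes tested), with adjusted p from 0.85 to 0.998, and DESeq2 likewise called 0 of 34 (0.207% of all genes called). At an unadjusted p under 0.05 there were 3, Anln, Kif11 and Bub1b, all lower under the heterozygote label. Over all genes tested 5.66% passed that level, 3.29% lower and 2.37% higher. Leaving out wild-type replicate 3 gave 5 such members, and leaving out replicate 2 of the heterozygote label gave 1. Of the 34 fold changes 26 were negative (76.5%, against 52% of all genes), with a median of -0.14 on the log2 scale against -0.02 over all genes. Without wild-type replicate 1 the median was -0.07. The share that was lower moved with scaling. It was 20 of 34 (58.8%, against 45.3% of all genes) once a fitted dependence on GC content and length had been taken out of every library, and 30 of 34 (88.2%, against 58.7%) when counts were scaled by library size alone. It was 24 of 34 with RLE size factors (50.6% of all genes) and 23 of 34 with upper-quartile scaling (48.8%). Over genes, deviation from the mean correlated with GC content at 0.18, 0.23, -0.16 and 0.04 across wild-type replicates 1 to 4, and at -0.10 to -0.03 under the heterozygote label.

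The data set bounds on what could have changed. The 95% interval of the fold change held no difference (a log2 change of 0) for 31 of 34 genes. It lay within 2-fold either way for 23 genes and within 1.5-fold either way for 14, among them Cdk1, Ccnb1, Ccnb2, Top2a, Birc5 and Nuf2. For the other 11 it reached past 2-fold in at least 1 direction, in Mki67 from 0.336 to 1.75 and in Cenpe from 0.0839 to 1.82.

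**Figure D3:**
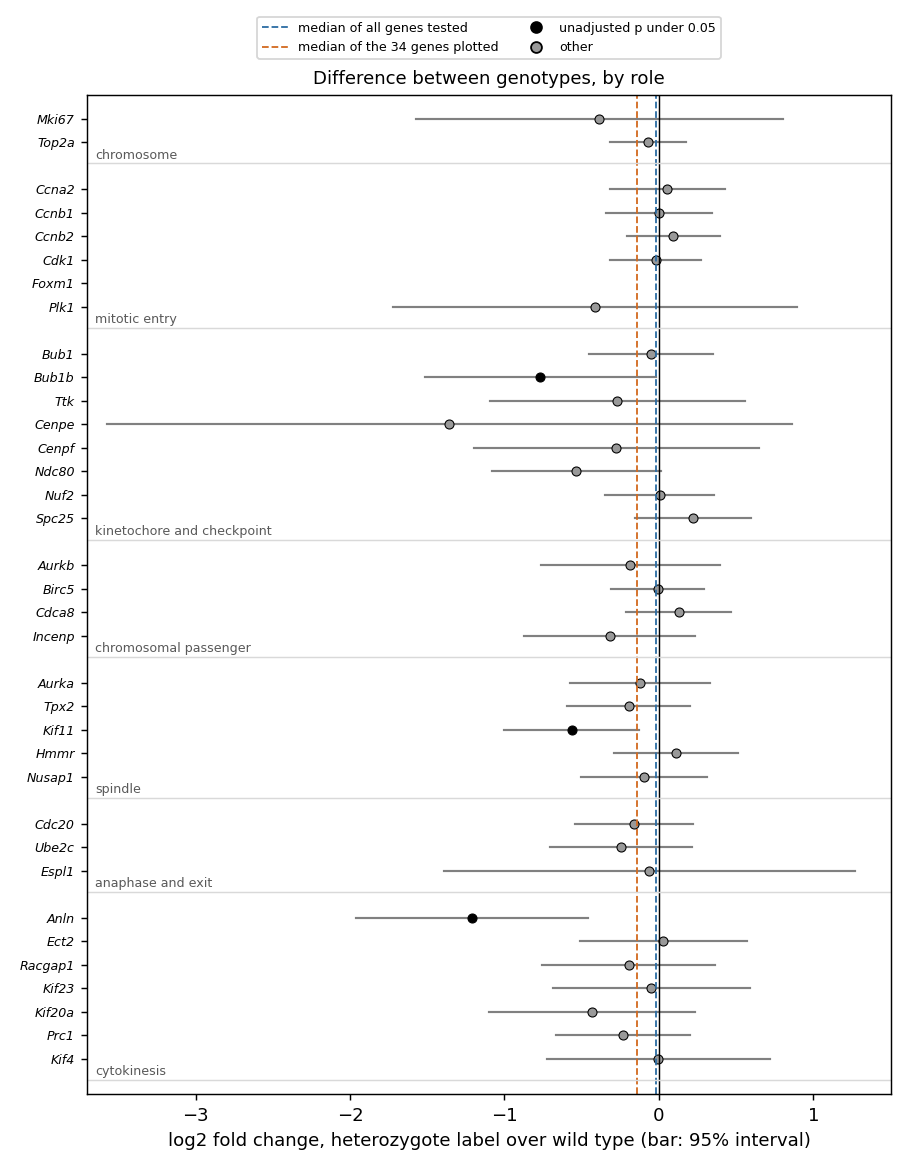
Log2 fold change, heterozygote label over wild type, with its 95% interval from edgeR (x axis) for the 34 genes tested, grouped by role. Filled black points are Anln, Kif11 and Bub1b, and the dashed lines mark the medians of these genes (-0.14) and of all genes tested (-0.02).

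Kinetochore and checkpoint genes were uneven. Of 8 members 6 were lower and 2 higher, with a median log2 fold change of -0.27, and 1 had an unadjusted p under 0.05. Their summed level was 517 ± 41.4 CPM for wild type against 497 ± 38.2 CPM for the heterozygote label (SD, n = 4 each). Bub1b (ENSMUSG00000040084.9, chromosome 2 from 118598211 to 118641591, plus strand, GRCm38) encodes BubR1, a part of the complex that inhibits the anaphase-promoting complex. Its levels were 58.5, 62.4, 24.2 and 29.9 CPM across wild-type replicates 1 to 4 and 27.9, 24.1, 17.9 and 32.9 CPM across heterozygote-labelled replicates 1 to 4. Wild-type replicates 1 and 2 stood well above the other 6 libraries, and the remaining wild-type libraries lay among the heterozygote-labelled ones. The means were 43.8 ± 19.5 and 25.7 ± 6.30 CPM (SD, n = 4 each), a log2 fold change of -0.77 (SE 0.33, unadjusted p = 0.0452, adjusted p = 0.85 by edgeR). The unadjusted p was over 0.05 in 8 of 18 alternative treatments and reached 0.152 without wild-type replicate 2. Its relative Bub1, a checkpoint kinase of the kinetochore, stood at 65.5 and 63.4 CPM (14.8 RPKM over all libraries) and differed by -0.05 (SE 0.18).

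The NDC80 complex, which grips the microtubule end, is built from 4 proteins in equal number, and differences between their fold changes were not tested. Ndc80 (ENSMUSG00000024056.9, chromosome 17 from 71496100 to 71526857, minus strand) measured 43.9, 49.5, 60.1 and 62.2 CPM across wild-type replicates 1 to 4 and 56.5, 27.9, 30.2 and 34.3 CPM across heterozygote-labelled replicates 1 to 4. Replicates 2 to 4 of the heterozygote label lay below all wild-type libraries, while its replicate 1 lay inside their range. The log2 fold change was -0.53 (SE 0.25, unadjusted p = 0.0552, adjusted p = 0.85 by edgeR). Its direct partner Nuf2 averaged 124 ± 25.1 CPM for wild type and 125 ± 15.4 CPM for the heterozygote label, a log2 fold change of 0.00 (SE 0.16). Spc25 had the highest log2 fold change of the members, 0.22 (SE 0.17), while Spc24, its partner and no member of the list, was at -0.11 (SE 0.12). Per length, Nuf2 stood at 0.89, 0.76, 0.93 and 0.63 times Ndc80 across wild-type replicates 1 to 4 and at 0.82, 1.75, 1.34 and 1.08 times across heterozygote-labelled replicates 1 to 4, so the ranges overlapped through 1 library.

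Among the other kinetochore genes Cenpe was the most variable of all members. This kinesin, which moves chromosomes to the spindle equator, had 231, 158, 167 and 290 fragments across wild-type replicates 1 to 4 and 34, 0, 188 and 56 across heterozygote-labelled replicates 1 to 4. Its CPM values in the latter were 1.70, 0, 10.3 and 2.87, so that 3 libraries lay below every wild-type library (7.67 to 12.8 CPM) and replicate 3 lay inside their range. On the log2 scale the difference was -1.36 with an SE of 0.99 (adjusted p = 0.859 by edgeR). Ttk, the checkpoint kinase Mps1 (5.39 RPKM; 29.0 and 24.1 CPM), differed by -0.27 (SE 0.37) and Cenpf, a large protein of the outer kinetochore (13.1 and 10.9 CPM), by -0.28 (SE 0.41).

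The chromosomal passenger complex, which corrects wrong attachments and later sits at the midzone, showed small differences. Aurkb (21.8 RPKM), its kinase, measured 96.9, 74.9, 41.7 and 59.5 CPM across wild-type replicates 1 to 4 and 68.0, 69.3, 42.8 and 60.0 CPM across heterozygote-labelled replicates 1 to 4, with all 4 of the latter inside the wild-type range. Its log2 fold change was -0.19 (SE 0.26) and changed sign when the GC content and length trend was removed. Birc5 (survivin, 163 CPM for wild type, 162 CPM for the other group) differed by -0.01 (SE 0.13) and Cdca8 (borealin, 160 and 175 CPM) by 0.13 (SE 0.15). Incenp, the scaffold, measured 16.8, 13.1, 18.7 and 13.9 CPM across wild-type replicates 1 to 4 and 10.6, 12.7, 11.0 and 15.8 CPM across heterozygote-labelled replicates 1 to 4. Only replicate 4 of the latter lay within the wild-type range, and the difference was -0.32 on the log2 scale (SE 0.25, unadjusted p = 0.230). Per length the scaffold was the scarcest of the 4 at 4.37 RPKM, and Birc5 the most abundant at 47.9 RPKM. The ratio of Cdca8 to Birc5 ran narrowly from 0.67 to 0.74 in the heterozygote-labelled libraries and more widely, from 0.45 to 0.80, in wild type.

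In the spindle group 4 of 5 members were lower, with a median of -0.12, and the summed level was 536 ± 63.3 CPM for wild type against 463 ± 33.4 CPM for the heterozygote label (SD, n = 4 each). Kif11 (ENSMUSG00000012443.3, chromosome 19 from 37376403 to 37421859, plus strand) encodes Eg5, the kinesin that slides antiparallel microtubules apart to make the spindle bipolar. It measured 167, 138, 157 and 138 CPM across wild-type replicates 1 to 4 and 95.3, 82.0, 80.4 and 148 CPM across heterozygote-labelled replicates 1 to 4. The first 3 heterozygote-labelled libraries lay below every wild-type library, and the fourth lay within the wild-type range. The means were 150 ± 14.3 and 101 ± 31.6 CPM (SD, n = 4 each), a log2 fold change of -0.56 (SE 0.20, unadjusted p = 0.0167, adjusted p = 0.85 by edgeR), with a 95% interval of 0.499 to 0.916 for the fold. Aurka, the kinase of spindle poles (22.9 RPKM; 60.5 and 55.7 CPM), differed by -0.12 (SE 0.20). Its activator Tpx2 (19.9 RPKM; 99.2 and 86.6 CPM) differed by -0.20 (SE 0.18). Hmmr, a microtubule-binding protein of the poles (10.6 RPKM), was at 0.11 (SE 0.18) and Nusap1, which bundles microtubules near chromosomes (40.7 RPKM), at -0.10 (SE 0.18).

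Kif15 is not a member of the list, but it encodes the kinesin known to share the task of Kif11 in spindle bipolarity, and it lay in the other direction. It had 23.5, 13.4, 11.9 and 13.8 CPM across wild-type replicates 1 to 4 and 29.2, 46.2, 23.1 and 39.0 CPM across heterozygote-labelled replicates 1 to 4. Wild-type replicate 1 was the only library of its group within the range of the other. The log2 fold change was 1.13 (SE 0.30, unadjusted p = 0.0038, adjusted p = 0.85 by edgeR). Per length, Kif11 stood at 16.2, 23.7, 30.3 and 22.9 times Kif15 across wild-type replicates 1 to 4 and at 7.47, 4.06, 7.97 and 8.66 times across heterozygote-labelled replicates 1 to 4. These ranges did not overlap, but the pair was chosen after both values had been seen, so the ratio is a description.

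**Figure D4:**
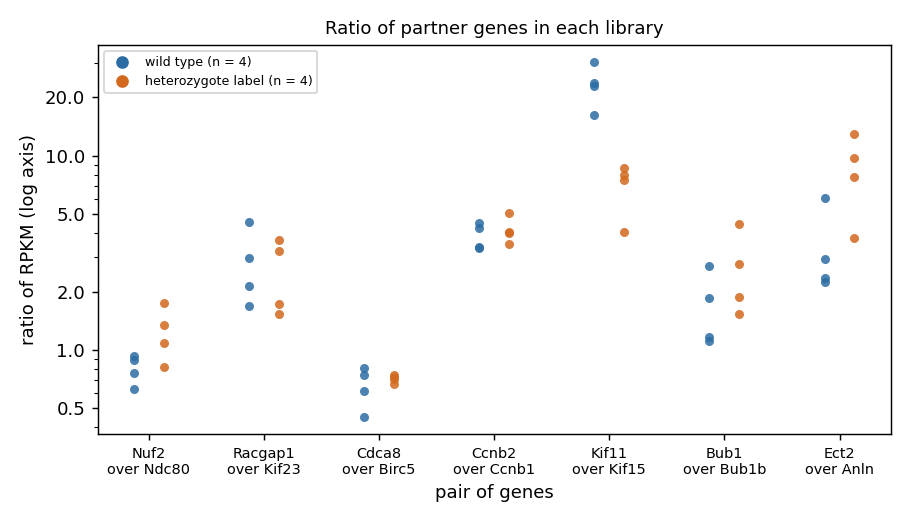
Ratio of RPKM between partner genes (log axis) in each library, wild type at left and heterozygote label at right of each pair. Kif11 over Kif15 is the pair whose groups do not overlap, at 16.2 to 30.3 and 4.06 to 8.66, and the others overlap.

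Among the 7 genes of cytokinesis and the central spindle 6 were lower, with a median of -0.19, and the summed level was 329 ± 41.4 CPM for wild type against 277 ± 36.5 CPM for the heterozygote label (SD, n = 4 each). Anln (ENSMUSG00000036777.8, chromosome 9 from 22332012 to 22389188, minus strand) encodes anillin, the scaffold that links actin, myosin and RhoA in the contractile ring. It measured 26.6, 36.8, 45.7 and 39.2 CPM across wild-type replicates 1 to 4 and 10.9, 9.12, 24.8 and 19.3 CPM across heterozygote-labelled replicates 1 to 4. It was the only member of the 34 whose groups did not overlap, where 1.82% of all genes tested were separate and lower and 1.65% separate and higher, and the gap between heterozygote-labelled replicate 3 and wild-type replicate 1 was small. The difference was -1.21 on the log2 scale (SE 0.34; unadjusted p = 0.0050 and adjusted p = 0.85 by edgeR), with a 95% interval of 0.257 to 0.728 for the fold. The unadjusted p stayed under 0.05 in all 18 alternative treatments of the data, against 16 of 18 for Kif11 and 10 of 18 for Bub1b. The log2 fold changes of Anln lay between -1.5 and -1.02, and the smallest adjusted p among them was 0.10 by DESeq2.

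Genes that act with anillin had smaller measured differences. Ect2, which activates RhoA at the equator, measured 96.2, 51.4, 60.8 and 68.3 CPM across wild-type replicates 1 to 4 and 83.8, 53.1, 55.7 and 89.7 CPM across heterozygote-labelled replicates 1 to 4, a log2 fold change of 0.03 (SE 0.24). Racgap1 (7.58 RPKM) and Kif23 (3.04 RPKM), which form the centralspindlin complex that recruits Ect2, differed by -0.19 (SE 0.25) and -0.05 (SE 0.29). Kif20a, a kinesin of the central spindle (9.39 RPKM), was at -0.43 (SE 0.30), Prc1, the bundler of midzone microtubules (9.95 RPKM), at -0.23 (SE 0.19), and Kif4, a kinesin that binds Prc1 (2.13 RPKM), at -0.00 (SE 0.32). No difference between Anln and these genes was tested.

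The cyclins and Cdk1 had measured differences near 0. Of the 5 mitotic entry genes tested, 2 were lower and 3 higher, with a median of 0.00. Cdk1 had 194, 132, 162 and 166 CPM across wild-type replicates 1 to 4 and 179, 156, 150 and 160 CPM across heterozygote-labelled replicates 1 to 4, a log2 fold change of -0.02 (SE 0.13) with all heterozygote-labelled libraries inside the wild-type range. Ccnb1 (cyclin B1) had 208, 153, 201 and 176 CPM and 184, 163, 157 and 234 CPM in the same order, a log2 fold change of 0.00 (SE 0.15). Ccnb2 was at 0.09 (SE 0.14) and Ccna2 (cyclin A2) at 0.05 (SE 0.17), and the 95% interval of the fold for these 4 genes lay between 0.789 and 1.34. Named pseudogenes are annotated for both B cyclins and for Kif4, and fragments that map to several places were not counted, so their levels may be understated.

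Plk1, the Polo kinase of mitotic entry and spindle assembly, was far more variable than the cyclins. It measured 23.3, 12.1, 2.06 and 18.8 CPM across wild-type replicates 1 to 4 and 9.37, 9.24, 7.96 and 15.7 CPM across heterozygote-labelled replicates 1 to 4. The highest and the lowest library were both wild type, 11.3-fold apart, and the log2 fold change was -0.41 (SE 0.59, unadjusted p = 0.495). Foxm1 had 68, 7, 4 and 9 fragments across wild-type replicates 1 to 4 and 7, 5, 6 and 14 across heterozygote-labelled replicates 1 to 4, and only wild-type replicate 1 exceeded 1 CPM, at 2.81.

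The anaphase and exit genes were each lower by less than their error allows to be told from 0. Ube2c, the ubiquitin-conjugating enzyme of the anaphase-promoting complex, measured 79.2, 55.3, 50.9 and 70.0 CPM across wild-type replicates 1 to 4 and 39.7, 66.7, 52.3 and 57.1 CPM across heterozygote-labelled replicates 1 to 4, a log2 fold change of -0.24 (SE 0.21, unadjusted p = 0.264). Only heterozygote-labelled replicate 1 lay outside the wild-type range. Cdc20 (139 and 124 CPM) differed by -0.16 (SE 0.17) and Espl1 by -0.06 (SE 0.60), the latter from 15 to 41 fragments per library.

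Mki67 and Top2a, the usual markers of proliferating cells, gave different pictures. Top2a measured 377, 348, 449 and 359 CPM across wild-type replicates 1 to 4 and 326, 384, 384 and 368 CPM across heterozygote-labelled replicates 1 to 4, with a log2 fold change of -0.07 (SE 0.11). Mki67 measured 15.6, 4.22, 31.9 and 13.1 CPM and 6.41, 14.8, 12.6 and 15.9 CPM in the same order, a 7.56-fold range within wild type alone and a log2 fold change of -0.38 (SE 0.53, unadjusted p = 0.487). Wild-type replicate 3, the highest library for Mki67, was the lowest for Plk1. Per length, Top2a exceeded Mki67 by 15.7-fold in that library and by 91.9-fold in wild-type replicate 2.

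Across libraries the genes did not move as a single block. Wild-type replicate 1 was the highest library for 14 of 34 genes and the lowest for none, with 28 genes above their own mean over the 8 libraries. Wild-type replicate 2 was the lowest library for 8 genes and heterozygote-labelled replicate 3 for 7. Summed over all 35 genes, the level was 3456, 2746, 3161 and 2966 CPM across wild-type replicates 1 to 4 and 2916, 2896, 2775 and 3046 CPM across heterozygote-labelled replicates 1 to 4, so that all 4 heterozygote-labelled libraries lay inside the wild-type range. That sum is weighted to abundant genes. The mean log2 deviation over the 34 genes was 0.31, -0.04, 0.04 and 0.18, then -0.09, -0.26, -0.15 and 0.02, in the same order. By that mean, heterozygote-labelled replicates 1 to 3 lay below every wild-type library. By the median deviation only heterozygote-labelled replicate 3 did, at -0.13 against -0.06 in wild-type replicate 2. The spread within a genotype, as the SD of log2 CPM, had a median of 0.30 over the 34 genes against 0.46 over all genes tested, and 9 of the 34 exceeded that value.

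**Figure D5:**
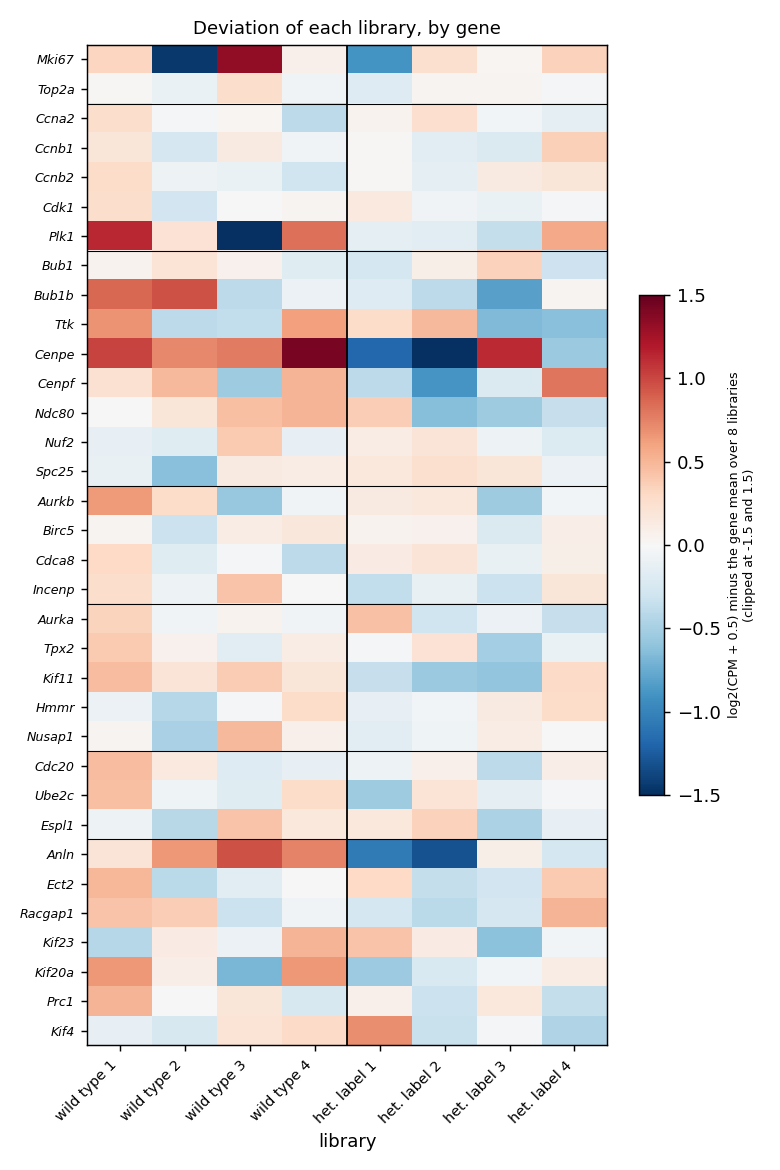
Deviation of log2(CPM + 0.5) from the gene mean over 8 libraries (colour, clipped at -1.5 and 1.5) for the 34 genes tested (rows, roles separated by lines) in each library (columns). Wild-type replicate 1 is above the mean in most rows, and Mki67 and Plk1 have opposite extremes in wild-type replicate 3. Anln is above its mean in all wild-type columns, but only slightly in replicate 1, and is slightly above it in heterozygote-labelled replicate 3.

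Other genes of the same machinery, in lists of textbook components, are given for comparison. Of 132 such genes, all tested, 77 were lower and none passed the threshold by edgeR. Other kinetochore genes had 17 of 37 lower (median 0.04), other cytokinesis genes 10 of 22 (0.02), other spindle genes 15 of 26 (-0.07), anaphase-promoting complex genes 12 of 18 (-0.07) and condensin genes 5 of 8 (-0.04). A mixed list of regulators of mitotic entry and cell cycle transcription (Cdc25 phosphatases, kinases such as Wee1 and Melk, and E2F, pocket protein and MuvB genes) had 18 of 21 lower (-0.26). DNA replication genes, which act just before in the cycle, were lower in 21 of 33 (-0.16), and their summed level was 4912 ± 398 CPM for wild type against 4602 ± 58.6 CPM for the heterozygote label (SD, n = 4 each).

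Of the 165 genes of these lists, replication included, 9 had an unadjusted p under 0.05, a share near the 5.66% of all genes tested, and none passed after adjustment. They are named as a description. Rbl1, the pocket protein p107 that belongs to the complex that silences cell cycle promoters, measured 139, 146, 120 and 164 CPM across wild-type replicates 1 to 4 and 117, 102, 109 and 101 CPM across heterozygote-labelled replicates 1 to 4, groups that did not overlap. It was the only 1 of the 165 with separate groups, where 1.82% of all genes tested were separate and lower. The difference was -0.41 on the log2 scale (SE 0.12, adjusted p = 0.85 by edgeR). Wee1, the kinase that restrains Cdk1, lay the other way at 0.60 (SE 0.24). Lower values were found for the inner kinetochore gene Cenpt at -0.76 (SE 0.30), the spindle pole gene Aspm at -0.79 (SE 0.33), the spindle gene Ckap2l at -0.36 (SE 0.15) and the condensin subunit gene Ncaph at -0.82 (SE 0.32), each with overlapping groups. Among replication genes the helicase subunit gene Mcm5 was at -0.42 (SE 0.17) and the DNA ligase gene Lig1 at -0.48 (SE 0.19).

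Library totals ran from 16750778 to 22861884 fragments, and a member had a median of 1216 fragments per library. All 12 stem cell markers on the list passed the count filter, with summed levels of 978 to 1316 CPM for wild type against 1056 to 1130 CPM for the heterozygote label, although Fgd5 was low, at 1.83 and 2.59 CPM. Multipotent progenitor markers summed to 852 to 980 CPM for wild type against 1072 to 1267 CPM for the heterozygote label. Of the 8 markers 7 were tested, and all 7 fold changes were positive but uneven. Cd53, Emb and Flt3, at 0.78, 0.63 and 0.88 on the log2 scale, were the 3 at an unadjusted p under 0.05 by edgeR. Cd34, Cd27 and Cd48 were near 0, at 0.00, 0.04 and 0.06, and Satb1 was at 1.09 (SE 0.63). Most of the difference in the sum lay in Cd53 (means of 179 and 306 CPM) and Emb (152 and 235 CPM). The part of these markers in the levels of the mitotic genes was not tested. Erythroid markers summed to 54.3 to 158 and 53.1 to 101 CPM, with Slc4a1 at 0 in all libraries. By mean, the largest part of these erythroid sums was Car1 (42.4 and 46.1 CPM), with a log2 fold change of 0.12 (SE 0.44). Of the erythroid markers tested 5 of 7 were lower, with a median of -0.81 on the log2 scale. None of the 7 had an unadjusted p under 0.05 by edgeR. Granulocyte and monocyte markers summed to 540 to 671 and 509 to 636 CPM and megakaryocyte markers to 659 to 940 and 492 to 804 CPM. Most of these sums came from Lyz2 (means of 363 and 353 CPM) and Pf4 (653 and 560 CPM). Of the granulocyte and monocyte markers tested 4 of 9 were lower, and Mpo ran from 0 to 13.2 CPM between libraries. Of the megakaryocyte markers 6 of 7 were lower, 1 of them at an unadjusted p under 0.05 by edgeR. Of the lymphoid markers Pax5, Igll1, Cd3e, Cd3g and Trbc2 were at 0 in all libraries.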

How the data were processed

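RNA was sequenced from 8 libraries, 4 per genotype, as paired reads of 75 bases from total RNA depleted of ribosomal RNA and made into strand-specific libraries, per the labels' protocols. The deposited values are raw fragment counts per gene, not normalized by the authors. The submitters' processing notes name Trim Galore and cutadapt, STAR 2.5.1b and the build GRCm38. Counting used featureCounts 1.6.2 with reverse strandedness and GENCODE M17 exons, per the file headers, where the processing notes name version 1.5.1. Under those options a fragment with multiple alignments or genes is not counted.

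Symbols came from a GENCODE table that named 53620 of 53715 identifiers. Groups and replicate numbers came from the library descriptions, and nothing says whether mice of a genotype were littermates. No library pair agreed within sampling noise (lowest chi-square per degree of freedom 35.4). Counts were tested with edgeR 4.0.16 in R 4.3.3, with filterByExpr by genotype, TMM scaling (factors 0.946 to 1.08), robust quasi-likelihood fits and two-sided p-values adjusted by Benjamini-Hochberg over 13992 genes with a threshold of 0.05. TMM factors also scale the CPM given. Alternatives were DESeq2 1.42.0, limma 3.58.1 (voom with quality weights), other scalings and filters, a loess offset on GC content of the longest transcript and gene length, the replicate number as a block, and each library left out. Same-numbered libraries did not deviate together (correlations 0.00565 to 0.0961, each under 0.1), so the main fit has no block. The scripts were tested on simulated data.

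The members and all lists were chosen with earlier results of these data known. Every library value was given for members with an unadjusted p under 0.05 in each role, or else for the one of smallest p, and for Mki67, Top2a, Ccnb1, Cdk1, Aurkb and Plk1. Showing Ndc80, Cenpe, Ect2, Foxm1, Kif15 and Rbl1 library by library, and Spc24 by its fold change, was chosen after their values were seen. Of the genes outside the list, up to 3 per list were named by smallest unadjusted p, here those under 0.05. Counting limits cover sampling only, since PCR copies carried no molecular identifiers.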

Additional observations from a re-analysis of the deposited data

Results flagged for a closer look

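In 3 of 68 groups of 4 libraries, a single library of a member stood apart from the other 3 by a larger share of the group's whole range of log2 CPM than Dixon's 95% critical value, and about 1 group in 20 does so by chance. Nuf2 was higher in wild-type replicate 3, at a log2 CPM of 7.34 against 6.82 in the nearest wild-type library (gap 0.897 of the range). Birc5 was lower in heterozygote-labelled replicate 3, at 7.12 against 7.39 (0.836). Racgap1 was higher in heterozygote-labelled replicate 4, at 6.21 against 5.45 (0.831).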

How the results depend on the processing

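All 10 processing alternatives and the 8 fits without 1 library gave 0 called members, and edgeR alternatives and voom called 0 genes in all, where DESeq2 called 29. The count of members lower in the heterozygote-labelled libraries ran from 20 to 30 of 34 over the processing alternatives with that number tested, and from 21 to 28 with each library left out, with medians from -0.15 to -0.07 in the latter. Members at an unadjusted p under 0.05 numbered from 1 to 5 with each library left out. With the replicate number as a block, 27 were lower (median -0.11) and 2 had an unadjusted p under 0.05, and no adjusted call changed.

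The log2 fold changes of 16 of 34 members kept their sign in all 18 alternatives. Those that changed sign all had a 95% interval holding 0 in the main fit, but not all were near 0 there. Plk1 was at -0.41, Mki67 at -0.38, Ube2c at -0.24, Aurkb at -0.19, Cdc20 at -0.16 and Aurka at -0.12. The others that changed sign were under 0.1 in size. With RLE size factors Birc5 was 0.0032 and Kif4 0.0085, and with DESeq2 0.0031 and 0.0088. With library size alone Nuf2 was -0.047, Ect2 -0.036, Ccna2 -0.013 and Ccnb1 -0.057. With upper-quartile scaling Cdk1 was 0.0079, Birc5 0.016 and Kif4 0.018. With voom Birc5 was 0.024 and Espl1 0.032, and with a mean of at least 1 CPM Kif4 was 0.00043. With the GC content and length trend removed Nuf2 was -0.031, Ube2c 0.0065, Aurka 0.0051, Ect2 -0.041, Cdc20 0.029, Cdk1 0.033, Aurkb 0.028, Birc5 0.058, Espl1 0.079 and Kif4 0.028. With the replicate block Ccnb1 was -0.0057. With the replicate block and that trend removed Nuf2 was -0.025, Ect2 -0.037, Cdc20 0.032, Plk1 0.16, Cdk1 0.047, Aurkb 0.042, Birc5 0.073 and Espl1 0.17. With each library left out the ranges that crossed 0 were -0.060 to 0.16 for Nuf2, -0.098 to 0.082 for Cdk1, -0.36 to 0.039 for Aurkb, -0.093 to 0.059 for Birc5, -0.19 to 0.040 for Bub1, -0.11 to 0.24 for Ect2, -0.13 to 0.074 for Ccnb1, -0.23 to 0.072 for Nusap1, -0.69 to 0.18 for Mki67, -0.099 to 0.017 for Top2a, -0.25 to 0.14 for Espl1, -0.31 to 0.14 for Kif4, -0.053 to 0.17 for Ccna2 and -0.21 to 0.14 for Kif23. The cause was not tested. Depth limits Espl1 and Foxm1, the members with the fewest fragments.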
